A study of Gallus gallus with 6 samples.

Results

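The genes described here encode the steps of long-chain fatty acid oxidation in mitochondria and the electron carriers that serve it. They were chosen by function, from a list of 9 symbols, with earlier results of these data known. The peaks counted for each gene are those whose summit lies in the annotated gene or within 50 kb of it in the chicken assembly GRCg7b. CPT1A, CPT2, ACADL, HADHA, HADHB, ETFA and ETFDH were found in the RefSeq gene table, so 7 of 17839 protein-coding genes on chromosomes were analysed. ACADM and ETFB have no entry under these names in the table used and were not analysed here. Together the 7 loci hold 103 of the 100148 distinct open regions obtained by merging the peaks of all libraries.

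The assay was ATAC-seq, which uses Tn5 transposase to cut and tag DNA that is open, on abdominal fat of 6 chickens of the NEAUHLF population. The labels name the lines FL and LL, and NEAUHLF broilers are known for divergent selection on abdominal fat. There were 3 birds per line, with 1 library per bird, and no treatment, age, sex or preparation batch is stated. FL1 to FL3 and LL1 to LL3 stand for replicates 1 to 3 of each line. The tissue was used whole, so that fewer cells of a type and less open chromatin per cell cannot be told apart in any value below.

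Fatty acids enter the mitochondrion as carnitine esters. CPT1A makes these esters at the outer membrane, a controlled step that malonyl-CoA inhibits, and CPT2 turns them back into acyl-CoA at the inner membrane. Acyl-CoA dehydrogenases such as ACADL, the long-chain enzyme, then take the first electrons, HADHA and HADHB form the trifunctional protein that completes each round, and the flavoprotein subunit ETFA and its oxidoreductase ETFDH pass the electrons to the respiratory chain. Fat tissue mainly stores and releases fatty acids, and in birds most new fatty acids are made in the liver.

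List lengths were 58060 (FL1), 32066 (FL2), 23188 (FL3), 73410 (LL1), 23316 (LL2) and 15628 (LL3) peaks. FL1 and LL1 stand apart by their long lists. In the same libraries 4 and 5 of 5 endothelial markers had a peak within 1 kb of a gene end, against 0 or 1 of 5 in the other libraries, and 5 of 5 fibroblast markers in both, against 2 or 3. Over all coding genes the occupied share was also higher there, 67.3% in FL1 and 69.5% in LL1 against 40.3% to 55.5% elsewhere. Adipocyte markers were occupied at 5 to 7 of 7 genes in every library. Hepatocyte markers, which would mark a tissue rich in this pathway, were occupied at 1 or 2 of 6 genes. ALB, FGA, TTR and AHSG were occupied in no library, APOA1 in all 6 (ranked at 32.1% to 69.2%) and F2 in LL1 and LL2. Skeletal muscle markers were occupied at 0 to 2 of 5 genes. Myeloid markers were at 4 of 5 in FL1 and LL1 and at 2 or 3 of 5 elsewhere. Lymphocyte markers were at 2 of 5 in FL1, 3 of 5 in LL1 and 0 to 2 of 5 elsewhere. Results that rest on the libraries with the long lists are given with and without them.

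The first question was whether these genes have open ends in abdominal fat. A gene end was counted as occupied where a peak summit lay within 1 kb of either annotated end; the gene table has no strand, so the start of transcription could not be told from the 3' end. CPT1A, ACADL, HADHA, HADHB, ETFA and ETFDH had an occupied end in all 6 libraries, 6 of the 7 genes, against 34.4% of all coding genes. CPT2 was occupied in LL1 alone. HADHA and HADHB share their peak and are not independent. The 6 genes were still those with an occupied end in every library at equal list lengths, with wide peaks alone and without any 1 library. With −log10 q of at least 5 the number was 4 of 7, against 28.6% of coding genes, and the genes no longer in every library were CPT1A and ETFA.

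Among the transport genes, CPT1A (chromosome 5, 16197964 to 16234089) had its end peak at the upper annotated end, in a region from 16233975 to 16234529. The summits lay 80 to 130 bp beyond that end in all 6 libraries. The authors' fold enrichment over local background was 7.16, 4.95 and 10.1 in FL1 to FL3 and 8.77, 3.88 and 2.45 in LL1 to LL3. Because fold enrichment is comparable only within a list, peaks were also ranked by q-value in their own list, where a low percentage means a strong peak. The CPT1A peak stood at 3.53%, 11.8% and 3.84% of the list in FL and at 3.29%, 23.7% and 79.5% in LL. The groups overlap, with LL1 the best of all 6 in percent of the list and LL3 close to the bottom of its list. Among coding genes with an occupied end, 20.7%, 32.1% and 9.42% ranked better than CPT1A in FL1 to FL3. In LL1 to LL3 it was 23.5%, 45.5% and 91.9%, so by this measure FL3 was best and the groups still overlapped. In fragments over the summit, solved from the deposited fold and p-value, the peak rested on 215, 51 and 82 in FL and 305, 50 and 37 in LL.

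CPT1A also held a pair of regions inside the gene that were present in every library. One, at 16225270 to 16226494, had its summits 8193 to 8377 bp before the upper end. It ranked at 3.72%, 70.6% and 43.3% in FL1 to FL3 and at 3.50%, 13.5% and 23.9% in LL1 to LL3. In LL2 and LL3 this inner region ranked better than the peak at the gene end. In LL1, as in all FL libraries, it ranked worse, by little in LL1 (3.50% against 3.29%) and FL1 (3.72% against 3.53%). This was noticed in the values and not tested. The other, at 16232218 to 16233396, lay 1278 to 1494 bp before the upper end and ranked between 11.8% and 51.0%. Exons and introns were not separated. The lower CPT1A end overlaps TESMIN by 1685 bp and held no peak present in all libraries.

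CPT2 (chromosome 8, 24266657 to 24326803) was the one gene of the 7 without a regular peak at its annotated ends. Its single end peak, in LL1, ranked at 85.3% of the list and is also within 1 kb of CZIB. As annotated, the gene spans 60147 bp and encloses all of SLC1A7, a glutamate transporter gene that ends at 24319745. A region inside CPT2 at that end of SLC1A7, from 24319209 to 24320397, was present in all 6 libraries. Its summits lay 6609 to 7146 bp before the upper CPT2 end, and 5 of the 6 lay outside SLC1A7. The fold enrichment there was 6.15, 5.90 and 8.05 in FL1 to FL3 and 7.63, 5.36 and 2.98 in LL1 to LL3. It ranked at 14.8%, 10.2% and 23.4% in FL and 17.6%, 14.9% and 68.8% in LL, again lowest in LL3. The region could not be assigned to either gene, because the table holds no transcript starts.

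The CPT2 window was the richest of the 7, with 27 regions, of which 6 were present in all libraries. The strongest, at 24221022 to 24222084, spanned the neighbouring ends of ECHDC2 and SCP2, whose product carries lipids and in its longer form cleaves acyl-CoA in peroxisomes. It ranked within 2.01% to 4.12% of every list, with a fold enrichment of 8.84, 7.88 and 12.7 in FL and 11.9, 7.57 and 5.50 in LL. Its summits lay 45040 to 45131 bp from CPT2. Others lay inside SCP2 (24227618 to 24228431) and inside PODN (24236925 to 24238108), at an end of CZIB (24335550 to 24336309) and at an end of MAGOH (24338781 to 24339403). None of the 6 had its summit within 1 kb of an annotated CPT2 end.

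The dehydrogenase gene ACADL (chromosome 7, 2823739 to 2837418) had a region at both ends in every library. The lower region, from 2822563 to 2823846, is shared with KANSL1L, a gene of a chromatin-modifying complex that ends 371 bases away. It ranked at 4.51%, 7.05% and 2.85% in FL1 to FL3 and at 5.97%, 17.4% and 36.5% in LL1 to LL3. The upper region, from 2836500 to 2838121, is shared with CPS1, the entry enzyme of the urea cycle in mammals, which begins after 74 bases. It ranked at 13.0%, 11.4% and 3.69% in FL and at 4.88%, 8.06% and 32.6% in LL. For the lower region the nearest values of the lines were 7.05% in FL2 and 5.97% in LL1, so the lines overlapped by that library alone; for the upper region they overlapped more widely. The fold enrichment of the lower region was 7.14, 5.82 and 11.0 in FL and 7.86, 4.46 and 3.13 in LL.

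HADHA (chromosome 3, 104751511 to 104775672) and HADHB (104775904 to 104787435) encode the subunits of 1 enzyme and lie next to each other, with 231 bases between them. A single region from 104775551 to 104776154, merged from the peaks of all 6 libraries, spans this gap, and all 6 summits lay inside it, 52 to 185 bp from the HADHA end. It ranked at 8.90%, 2.5% and 8.05% in FL1 to FL3 and at 4.44%, 14.3% and 47.9% in LL1 to LL3. The fold enrichment was 7.0, 7.88 and 10.9 in FL and 11.0, 4.96 and 3.05 in LL, on 113, 67 and 57 fragments in FL and 219, 49 and 38 in LL. In rank LL1 lay among the FL values, and the other LL libraries were behind all of them. The far end of HADHA, shared with GAREM2, had a peak in LL1 alone, ranked at 79.4%.

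A region inside HADHB, from 104780784 to 104782058, was present in all 3 LL libraries and in FL1. It ranked at 44.5% in FL1 and at 16.5%, 47.2% and 89.3% in LL1 to LL3. The far end of RAB10, a gene of vesicle transport, showed nearly the opposite pattern. Its region, from 104703817 to 104704433 with the best summit 47395 bp from HADHA, ranked at 1.17%, 6.45% and 15.1% in FL and at 0.606% in LL1, and had no peak in LL2 and LL3.

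Of the electron carriers, ETFDH (chromosome 4, 21373154 to 21390603) had the most even end peak. The region from 21372407 to 21373760 spans the 61 bases between ETFDH and C4H4ORF46, and its summits lay 5 to 141 bp from the lower ETFDH end. It ranked at 2.62%, 6.69% and 9.14% in FL1 to FL3 and at 2.08%, 5.46% and 4.98% in LL1 to LL3. The fold enrichment was 9.60, 6.29 and 9.85 in FL and 12.2, 6.06 and 5.24 in LL. In LL3, where 5 of the 6 genes with an end peak in every library had their poorest rank, ETFDH ranked ahead of all but 8.65% of coding genes with an occupied end. The other regions of the ETFDH window present in all libraries lay 8784 to 25486 bp beyond the upper end, at an end of PPID (21398792 to 21401295), a cyclophilin gene that overlaps ETFDH, and at 21405295 to 21406180 and 21415733 to 21416338 inside FNIP2, which encodes a folliculin-interacting protein.

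ETFA (chromosome 10, 3381857 to 3411905) had the poorest mean rank of its end peak among the 6, in both lines. The region from 3381536 to 3382498 at its lower end lay away from the end of any other coding gene. It ranked at 8.29%, 35.3% and 49.0% in FL1 to FL3 and at 6.95%, 58.0% and 86.5% in LL1 to LL3, on 116, 32 and 25 fragments in FL and 169, 29 and 29 in LL. The libraries with the long lists stood well ahead of the other 4 in both lines. Among coding genes with an occupied end, 40.9% to 95.2% ranked better than ETFA in the same library. One other region of its window was in all libraries, inside SCAPER at 3353682 to 3354636.

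**Figure D1:**
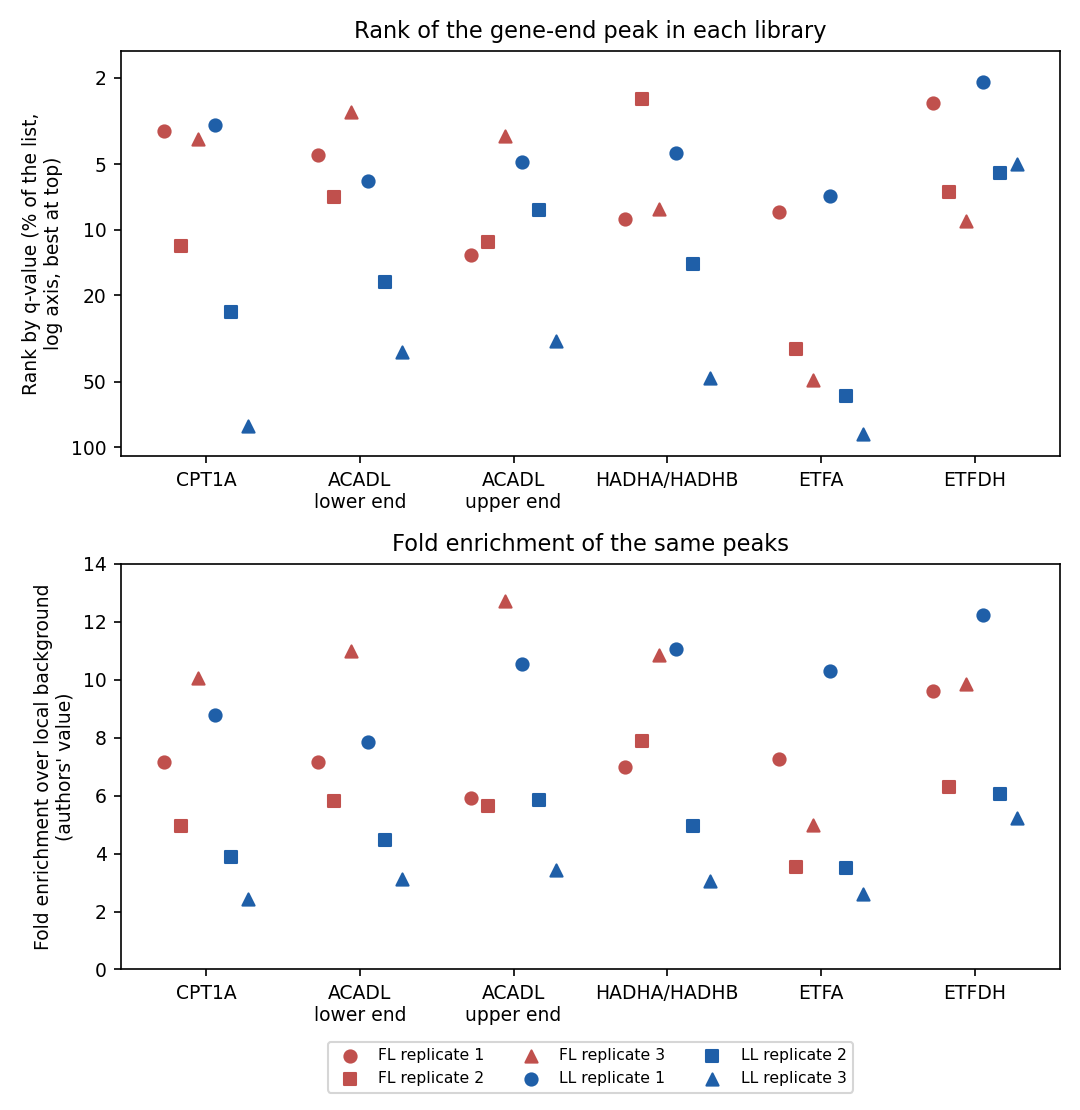
Rank by q-value in percent of the list (top, log axis, best at top) and the authors' fold enrichment (bottom) of the gene-end peak in each library, with FL in red and LL in blue; HADHA and HADHB share a peak and both ends of ACADL are shown. The ETFDH peak stays between 2.08% and 9.14% in all 6 libraries, while the LL3 peaks of CPT1A and ETFA stand at 79.5% and 86.5%.

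The next question was whether the lines differed at these gene ends. In rank of the best end peak, with 100% given to a library without one, 0 of 7 genes had all FL libraries ahead of all LL libraries and 0 of 7 the reverse, against 2.34% and 0.448% of all coding genes. The mean rank of CPT1A was 6.40% ± 4.72 in FL and 35.5% ± 39.5 in LL (± SD over n = 3 libraries per line; two-sided exact permutation p = 0.4). That of ACADL, taking the better of both ends, was 4.81% ± 2.11 and 15.2% ± 15.1 (exact permutation p = 0.2), that of HADHA and HADHB 6.48% ± 3.48 and 22.2% ± 22.8 (exact p = 0.3), that of ETFA 30.9% ± 20.7 and 50.5% ± 40.3 (exact p = 0.5) and that of ETFDH 6.15% ± 3.29 and 4.17% ± 1.83 (exact p = 0.4). For CPT2 the exact p was 1. The smallest p that 3 libraries against 3 allow is 0.1, and after Benjamini-Hochberg adjustment over all 17839 genes every one of these exact permutation p-values was 1. The spread within LL exceeded that within FL for all of these genes but ETFDH. Without LL3 the FL minus LL difference in mean rank was -7.11 for CPT1A and -1.67 for ACADL. For HADHA and HADHB it was -2.91 and for ETFA -1.59. With all libraries these differences were -29.1, -10.4, -15.7 and -19.6, in the same order. For CPT2 and ETFDH the difference was 7.36 and 2.38 without LL3, against 4.91 and 1.98 with it. The median FL minus LL difference in rank was -15.7 percentage points over the 7 genes, with the shared peak of HADHA and HADHB counted for both. It was -0.19 over all coding genes, of which 4411 had no occupied end in any library and a difference of 0. These sets are unlike, since 6 of the 7 genes but 34.4% of coding genes had an occupied end in every library. The median rank of all occupied coding gene ends was 10.9%, 19.0% and 24.3% in FL1 to FL3. In LL1 to LL3 it was 9.96%, 27.3% and 29.8%.

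These counts rest on LL1. Without it, CPT1A, ACADL, HADHA, HADHB and ETFA, 5 of 7 genes, of which HADHA and HADHB share a peak, had all FL libraries ahead of both remaining LL libraries, as did 24.6% of all coding genes. Without FL1 ETFDH alone was ahead in all LL libraries, with 5.57% of coding genes, and without FL2 ACADL alone in all FL libraries, with 3.98%. With both libraries of the long lists left out the numbers were 5 of 7 ahead in FL, against 25.6%, and 1 of 7 in LL, against 5.69%. These shares count all 17839 coding genes, of which 4411 had no occupied end in any library and could not be ahead. The 5 genes ahead in FL had an occupied end in every library, as did 34.4% of coding genes. Set against coding genes with an occupied end in the same library, the lines overlapped without LL1 for all of these genes but CPT1A. The share of such genes that ranked better was 19.8% in LL2 against 25.9% in FL1 for ACADL. For HADHA and HADHB it was 31.9% against 43.9%, and for ETFA 79.4% in LL2 against 80.1% in FL3. CPT1A stood at 9.42% to 32.1% in FL and at 45.5% and 91.9% in LL2 and LL3. Over all coding genes LL2 and LL3 had the fewest occupied ends, 8392 and 7181, against 9617 to 12396 in the other libraries. At equal list lengths, with every library kept, 0 of 7 genes were ahead in all FL and 0 of 7 in all LL, against 4.57% and 2.47%. The FL minus LL difference in mean rank was then -29.1 for CPT1A, -10.7 for ACADL and -13.3 for HADHA and HADHB. With full lists these were -29.1, -10.4 and -15.7. For ETFA, ETFDH and CPT2 it was -9.88, 4.71 and 0, against -19.6, 1.98 and 4.91 with full lists. With libraries left out, the part of list length in the ranks was not tested.

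No gene end was occupied in all libraries of one line and none of the other, 0 of 7 in either direction, against 0.348% of coding genes for FL and 0.0280% for LL. No region of the loci was either, 0 of 103 in each direction, against 0.209% of all regions for FL and 0.0849% for LL. At these shares 0 of 7 and 0 of 103 are near the background. The closest to such a pattern were the RAB10 region, in all FL libraries and LL1, the HADHB region above, and a region inside KANSL1L at 2788938 to 2789959 in the ACADL window, in all LL libraries and FL1 and ranked at 18.2% there and at 15.5%, 33.8% and 64.6% in LL. Without FL1 the last pair counted as LL regions, 2 of the loci, against 2.18% of all regions. With LL1 left out the RAB10 region counted as an FL region, 1 of the loci, against 2.54%. Without FL3 a region at 24371024 to 24371314 of chromosome 8 counted as FL (0.836% of all regions), and without LL3 one at 24298854 to 24299588 as LL (1.10%).

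Peak density around each gene was compared as the number of peaks in its window per 10000 peaks of the list. CPT1A had 6, 5 and 3 peaks in FL1 to FL3 and 11, 3 and 3 in LL1 to LL3. CPT2 had 22, 14 and 9 in FL and 23, 8 and 7 in LL. ACADL had 10, 5 and 5 in FL and 13, 6 and 4 in LL. In each of these windows LL1, the longest list, gave the most peaks, but per 10000 peaks it was highest in none of the 3.

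HADHA had 10, 6 and 6 peaks in FL and 11, 5 and 2 in LL, and HADHB 7, 4 and 5 in FL and 9, 5 and 2 in LL, in windows that largely coincide. ETFA had 8, 7 and 2 in FL and 10, 2 and 2 in LL. ETFDH had 8, 5 and 6 in FL and 10, 4 and 5 in LL. Per 10000 peaks of the list, CPT2 was at 3.79, 4.37 and 3.88 in FL and 3.13, 3.43 and 4.48 in LL, above every value of the other 6 genes in the same library. Its window is also the longest, at 160 kb, and per 100 kb of window it exceeded 76.4% to 96.2% of coding genes in the same library. The other 6 genes ranged from above 17.9% (ETFA in FL3) to above 83.0% (ETFDH in LL3).

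In density, 0 of 7 genes had all FL libraries above all LL libraries and 0 of 7 the reverse, against 2.98% and 4.10% of coding genes. ACADL had the lowest p, with 1.81 ± 0.309 peaks per 10000 in FL and 2.3 ± 0.459 in LL (± SD over n = 3 libraries per line; two-sided exact permutation p = 0.2, adjusted p = 1 over all coding genes). HADHA had 2.06 ± 0.463 and 1.64 ± 0.450 (exact p = 0.4), ETFDH 1.84 ± 0.652 and 2.09 ± 0.975 (exact p = 0.7), and the exact p of the other genes lay between 0.4 and 0.8. The median FL minus LL difference was -0.014 peaks per 10000 over the 7 genes and -0.081 over all coding genes. Without FL3 ACADL had all LL libraries above and ETFA all FL libraries above, against 11.2% and 5.28% of coding genes. Without LL1 ACADL had all LL above (12.2%). Without LL2 HADHA had all FL above (4.90%), and without LL3 CPT2 did (6.90%). With −log10 q of at least 5 HADHA had all FL above (3.09%).

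Taken as a whole, with each peak counted once, the 7 loci held 64, 42 and 31 peaks in FL1 to FL3 and 79, 28 and 23 in LL1 to LL3. This was 11.0, 13.1 and 13.4 per 10000 peaks in FL and 10.8, 12.0 and 14.7 in LL. The means were 12.5 ± 1.28 in FL and 12.5 ± 2.02 in LL (± SD over n = 3 libraries per line). The lines overlapped fully, and within each line the longest list had the lowest value.

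**Figure D2:**
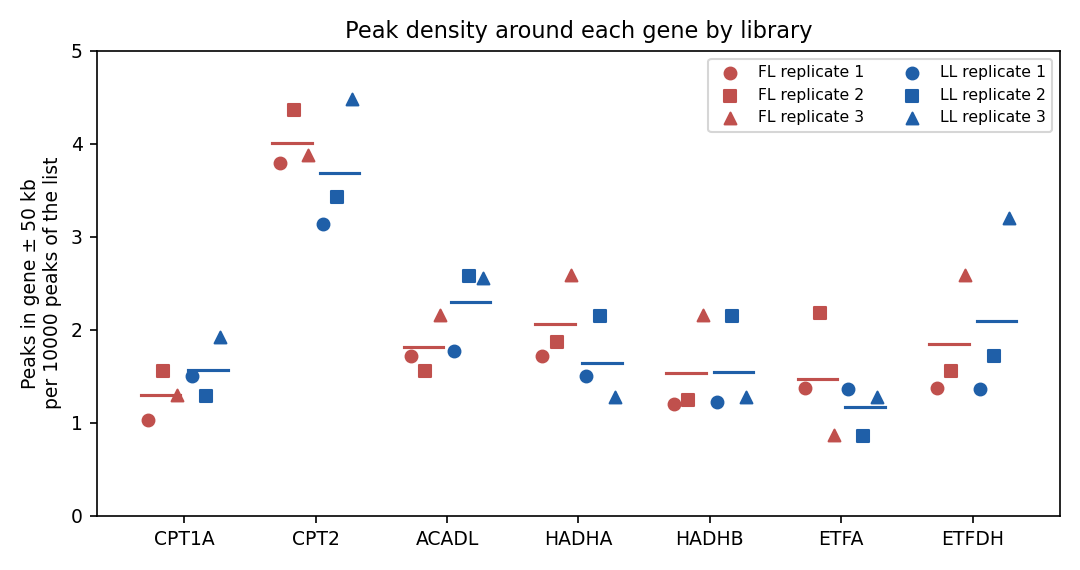
Number of peaks in each gene and 50 kb on either side per 10000 peaks of the list, by library, with FL in red, LL in blue and horizontal lines at the line means. CPT2 lies between 3.13 and 4.48 in all libraries, and FL and LL overlap for every gene.

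The 103 regions fell into a recurrent and a sporadic part. Of these, 18 were present in all 6 libraries, or 17.5%, against 8.45% of the regions within 50 kb of any coding gene. At the other extreme 45 regions (43.7%) were present in 1 library, against 44.6%. The recurrent regions had a median width of 1013 bp and those of 1 library 212 bp, close to 992 and 222 bp around all coding genes. Regions at an end of one of the 7 genes were recurrent in 6 of 11 cases, at an end of another coding gene in 5 of 12, inside the genes themselves in 2 of 20 and inside another gene in 5 of 57. Shares by place were not computed around all coding genes, so these counts have no background and describe the loci alone.

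A further 22 regions (21.4%) were present in FL1 and LL1 and in no other library, against 21.3% around all coding genes. They included 8 around CPT2 and 4 around ACADL. In these libraries the lists were longest, and endothelial and fibroblast markers, like coding genes as a whole, were most often occupied, as given above. The part of list length or of marker occupancy in these regions was not tested. Of the peaks just inside the limit of 50 kb, the nearest to it lay 49890 bp from ACADL in LL2 (99.97% of the list). Just outside, the nearest lay 50539 bp from HADHB (83.2%) and 50581 bp from ACADL (22.9%), both in LL1.

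**Figure D3:**
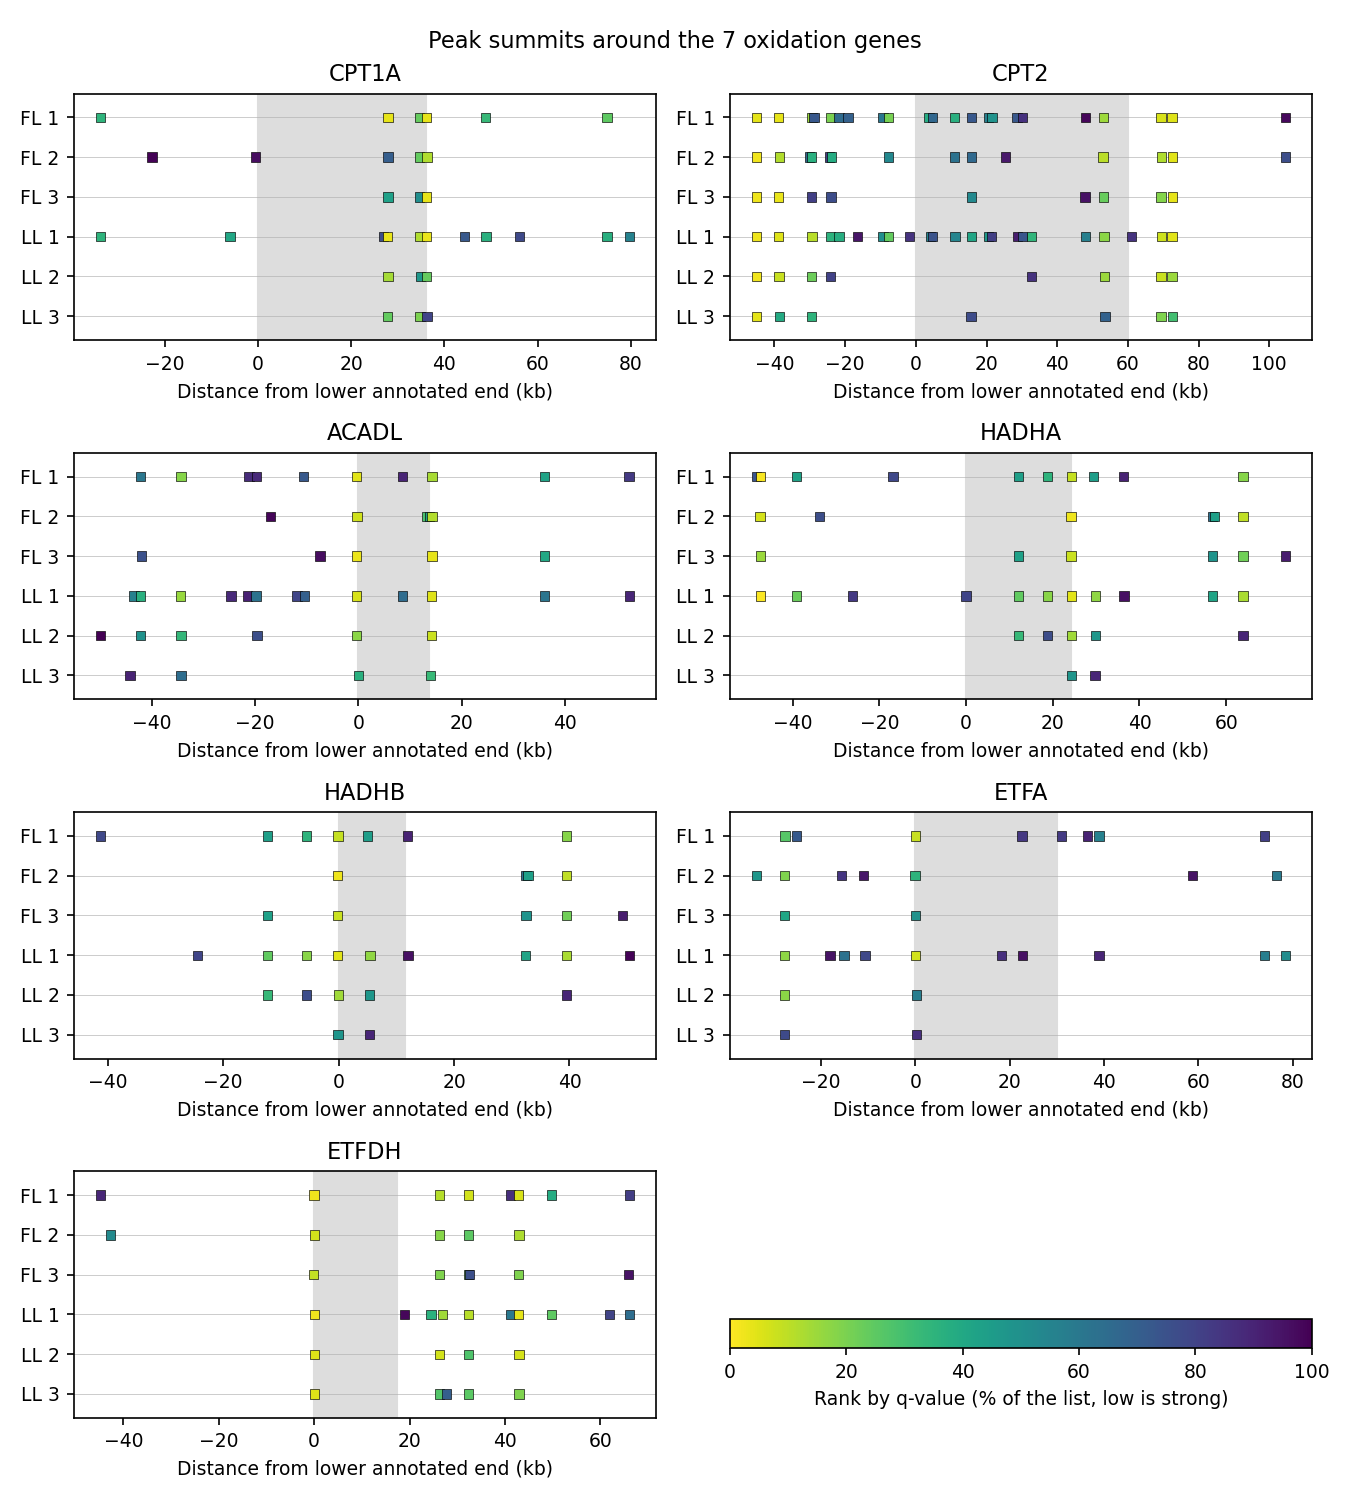
Peak summits in each library around the 7 genes, in kb from the lower annotated end, with the gene in grey and colour showing the rank in the list. Columns of squares that run through all 6 libraries mark the 18 recurrent regions, such as those at the lower ends of ETFA and ETFDH and between HADHA and HADHB, and CPT2 has none at its ends.

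The remaining genes of the pathway were read from a list of 40 genes of mitochondrial and peroxisomal oxidation, of which 35 were found in the table. An end was occupied in all 6 libraries for 20 of the 35, against 34.4% of coding genes. No library had an occupied end for 3 of the 35, against 4411 of 17839 coding genes. These 3 were ACAD9, which also assembles respiratory complex I, ACSL5, an acyl-CoA synthetase, and MLYCD, the malonyl-CoA decarboxylase whose substrate inhibits CPT1A. DECR2, a reductase for unsaturated acyl-CoA in peroxisomes, had a peak in FL1, FL2, FL3 and LL1. It was the 1 gene of 35 occupied in at least 2 more FL than LL libraries, against 1151 of 17839 coding genes. The reverse held for 0 of 35, against 174 of 17839. The list as a whole was occupied at 31, 27 and 28 genes in FL1 to FL3 and at 32, 26 and 20 in LL1 to LL3.

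By line, 2 of the 35 had all FL libraries above all LL libraries in peak density and 2 the reverse, against 2.98% and 4.10% of coding genes. These, named after their values were seen, were ACAD9 and the peroxisomal oxidase ACOX2 for FL, and ACAD11 and the peroxisomal carrier SLC25A17 for LL. In end rank ECI1, an isomerase for unsaturated acyl-CoA, was ahead in all FL libraries, at 5.11%, 2.03% and 1.23% against 5.25%, 6.0% and 10.4% in LL, 1 of 35 against 2.34% of coding genes, and 0 of 35 were ahead in all LL libraries. The median FL minus LL density difference of the list was -0.12 peaks per 10000, against -0.081 over all coding genes.

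Of 14 regulators of oxidation, 13 were found and 6 (46.2%) had an occupied end in every library, against 34.4% of coding genes. These were PPARD, a fatty acid receptor, NRF1 and GABPA, transcription factors of mitochondrial genes, PRKAA1, a catalytic subunit of the energy sensor AMPK, SIRT1, a deacetylase, and the corepressor NCOR1. PPARA, the fatty acid receptor that drives oxidation in liver, and KLF15 were occupied in FL1 and LL1 alone. The coactivator genes PPARGC1A and PPARGC1B were occupied in 1 library each, FL1 and LL1, PRKAA2 in FL1, and ESRRG in FL1 and FL2. ESRRG was the 1 gene of 13 occupied in at least 2 more FL than LL libraries, against 1151 of 17839 coding genes. The reverse held for 0 of 13, against 174 of 17839. SIRT3 was occupied in 5 libraries, all but LL2. In density 1 of 13, NCOR1, had all LL libraries above all FL libraries, against 4.10% of coding genes, and 0 of 13 the reverse, against 2.98%.

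For comparison, an end was occupied in every library for 4 of 9 genes of fatty acid synthesis (44.4%) and for 2 of 6 lipolysis genes found (33.3%), against 34.4% of coding genes. Fatty acid synthesis genes were occupied at 9, 9 and 7 of 9 in FL and 9, 7 and 6 in LL. The 7 oxidation genes were at 6 in every library but LL1, where CPT2 made 7. These shares were not tested against each other.

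**Figure D4:**
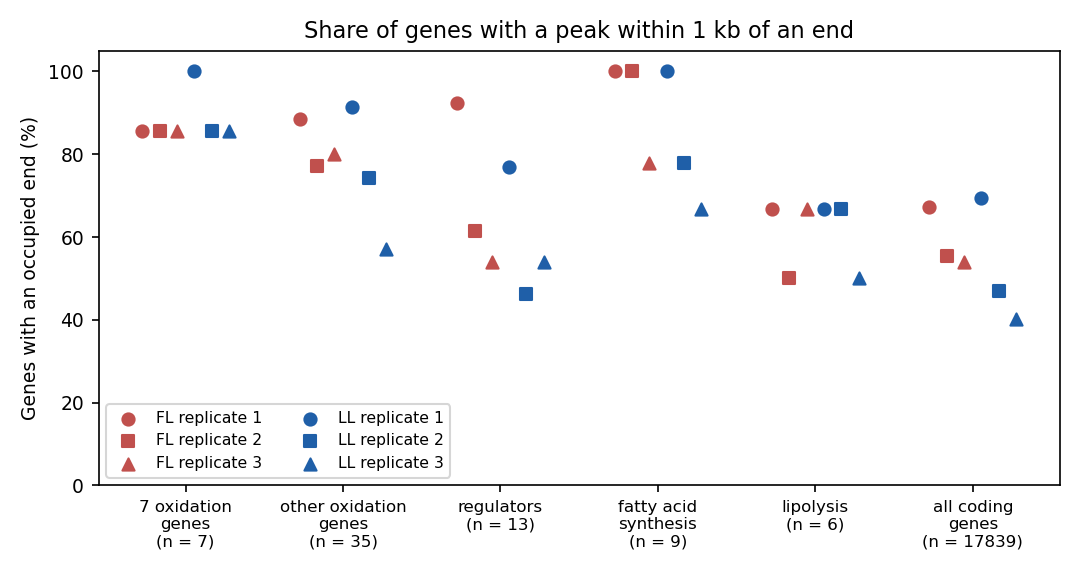
Percent of genes with a peak summit within 1 kb of an annotated end in each library, for the 7 oxidation genes, other gene lists and all coding genes, with FL in red and LL in blue. The 7 genes are at 6 of 7 in 5 libraries and at 7 of 7 in LL1, while all coding genes fall from 12396 of 17839 in LL1 to 7181 in LL3.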

How the data were processed

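ATAC-seq peaks were deposited as 1 list per library, and the peak names in each list carry 1 library code. The assembly was GRCg7b, and MACS3 3.0.0b1, bedtools 2.30.0, BWA, SAMtools, Trim Galore and FastQC are listed, per the submitters' processing notes. For settings, duplicate removal and any Tn5 shift, nothing is given in the sources used here. Each deposited list gives a score, a fold enrichment ratio against local background, the −log10 of p and of q, and a summit. The smallest −log10 q is just above 2 in every deposited list, and read totals are not listed. Fragments over a summit were solved from fold and −log10 p, within a relative tolerance of 1e-04. They are called fragments here, but the unit counted depends on calling settings that are not given. Besides list length, depth may show in the lowest background solved in the same way. That was 8.26, 4.90 and 2.23 in FL1 to FL3 and 8.10, 5.80 and 8.73 in LL1 to LL3. It did not follow list length, as LL3 had the highest value and the shortest list.

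Summits were assigned to genes of a RefSeq GRCg7b table, which has no strand and no exons; no sequence was used, so a planned promoter motif search was not run. Regions are peaks merged at 1 bp overlap. Lines were compared for every coding gene by a two-sided exact permutation test over all 20 ways to assign the libraries (Python 3.11.15, NumPy 2.4.6), tested on simulated data, with Benjamini-Hochberg adjustment over 17839 genes. Each library is from another bird, per the series' design text. Where LL1 or another library is left out, genes were counted by non-overlap of the lines and no exact test was run. With 1 library left out such a test could give no p below 0.1. The members, gene lists and tests were chosen with earlier results of these data known. All 7 genes found are named; of the other pathway genes, up to 8, namely those occupied in no library or differing by at least 2 libraries between lines, and every regulator. ACOX2, ACAD11, SLC25A17 and ECI1 fall outside this rule and were named after their values were seen. At each gene the regions in all libraries are described. Alternatives were a stricter q-value, equal list lengths, wide peaks, other windows and overlaps, a replicate block and leaving out libraries.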

Additional observations from a re-analysis of the deposited data

How the results depend on the processing

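No gene had an end occupied in all libraries of one line and none of the other under any alternative tried. The matching shares of coding genes were 0.112% to 5.59% for FL and 0.0392% to 0.701% for LL. The number of genes with an end in every library lay between 4 and 6 of 7, against 28.6% to 40.5% of coding genes. The share of peaks at the 7 loci was 12.5 per 10000 in both lines. At equal list lengths it was 15.1 ± 0.369 in FL and 14.5 ± 0.369 in LL (± SD over n = 3 libraries per line). With peaks of at least 178 bp it was 14.5 ± 3.40 and 12.4 ± 2.06. Windows of 10 kb gave 5.81 ± 0.589 in FL and 6.69 ± 1.52 in LL, and the gene body alone 2.67 ± 0.228 and 3.78 ± 0.744. In these narrower windows the mean was higher in LL, which was not tested. The gene-body value of ETFA was higher in all LL libraries (1 of 7 genes, 1.74% of coding genes), HADHA was higher in all FL libraries with −log10 q of at least 5 (1 of 7, 3.09%), and 1 region inside HADHB was an LL region at equal list lengths (1.69% of all regions); the cause was not tested. Leaving out 1 library gave 0 to 5 genes ahead in all FL and 0 to 1 in all LL in rank. The shares of coding genes were 2.49% to 24.6% and 0.527% to 5.57%. In density it gave 0 to 1 with all FL above, against 4.90% to 9.02%, and 0 to 1 with all LL above, against 5.12% to 12.2%. There were 0 to 1 FL regions and 0 to 2 LL regions, against 0.237% to 2.54% and 0.0975% to 2.18% of all regions. With both libraries of the long lists left out, an alternative chosen after seeing the data, 5 genes were ahead in FL and 1 in LL in rank. The shares over all coding genes, those without an occupied end included, were 25.6% and 5.69%. In density there were 0 and 1 genes (14.4% and 17.4%), and there were 2 FL and 2 LL regions (5.46% and 4.22% of all regions). In the labels, same-numbered birds share a number and no stated batch. The correlation of deviations in region occupancy was 0.312, 0.152 and -0.000359 for replicates 1, 2 and 3. Pairs of unlike number from the 2 lines lay between -0.334 and 0.291. In locus density it was 0.579, -0.0631 and -0.00186, against -0.461 to 0.39, so the pair of FL1 and LL1 was highest in both. As a replicate block, genes were counted where all pairs differed the same way. A test of these pairs could give no p below 0.25, and none was run. In density 1 gene (ACADL) was higher in LL in all pairs (15.8% of coding genes). In rank 1 (ACADL) was ahead in FL (11.5%) and 1 (ETFDH) in LL (5.95%). The annotated start alone was not run, for want of strand. Peak lists limit what depth can show: a region without a peak may be open below the q-value used.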
